A study of Mus musculus with 9 samples.

Results

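Blood-cell and inflammation microRNAs were followed in 9 one-colour Agilent mouse miRNA arrays of bone-marrow-derived osteoblastic cells. The set comprised 9 of the 1881 mouse miRNAs on the array and was chosen by name: miR-223-3p, miR-342-3p, miR-142a-3p, miR-146a-5p, miR-155-5p, miR-150-5p, miR-181a-5p, miR-181b-5p and miR-21a-5p. All 9 had probes on the array. The choice used no measured value of the series as its rule, but earlier results of these data were known when it was made.

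The RNA came from marrow cells of male C57BL/6 mice aged 8 weeks, which were cultured for 7 days and then held for 7 days in a medium with β-glycerophosphate, an ascorbic acid derivative and dexamethasone. The resulting osteoblastic cells were irradiated with alpha particles, short-range and densely ionizing helium nuclei, to doses of 0, 0.5 or 1 Gy at 0.22 Gy/min. Each dose had 3 arrays, numbered 1 to 3 as in the sample titles, and 0 Gy was the control. The labels name no other genotype, agent or sort, and do not state whether same-dose samples were different animals, different cultures or repeats of 1 culture. The p-values below therefore set a difference only against the spread of these samples, and that spread may be technical. How long after irradiation RNA was taken is not stated in the labels. A marrow culture of this kind is a mixture of cells and can keep blood cells beside the adherent stroma, so a lower signal from fewer cells of a type and one from less RNA per cell cannot be told apart.

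A mature miRNA guides the silencing complex to messenger RNAs that pair with its seed, the short stretch near its 5′ end. miR-142a-3p is made in nearly all blood lineages, miR-223-3p marks granulocytes and monocytes, miR-150-5p marks mature lymphocytes, and miR-181a-5p and miR-181b-5p are abundant in thymus and early B cells but are also made outside blood. miR-146a-5p and miR-155-5p are induced by Toll-like receptor signalling through NF-kB, and miR-21a-5p is a broadly expressed miRNA that rises in many inflamed tissues.

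The mature sequences are shown because the array probes and the family groupings rest on them. Capitals mark the seed, bases 2 to 8 counted from the 5′ end, and the sequences are those of RefSeq for the mouse build GRCm38.p6.
miR-223-3p: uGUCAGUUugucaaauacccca
miR-342-3p: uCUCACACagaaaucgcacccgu
miR-142a-3p: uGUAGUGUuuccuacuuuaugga
miR-146a-5p: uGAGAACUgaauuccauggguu
miR-155-5p: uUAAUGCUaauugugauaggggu
miR-21a-5p: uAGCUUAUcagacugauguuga
miR-181a-5p: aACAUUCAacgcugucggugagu
miR-181b-5p: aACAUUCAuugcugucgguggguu
miR-181c-5p: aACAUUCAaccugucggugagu
miR-181d-5p: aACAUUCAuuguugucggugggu
miR-146b-5p: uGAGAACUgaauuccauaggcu

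The last 3 are relatives that share a seed with a member. RefSeq sequences were matched for 8 of the 9 members, all but miR-150-5p, and these carried 7 distinct seeds, since miR-181a-5p and miR-181b-5p share theirs. With positions counted from 1 at the 5′ end, miR-181b-5p differed from miR-181a-5p by A9U, C10U and A21G and by its longer 3′ end. From miR-146a-5p to miR-146b-5p the changes were G18A and U21C, and from miR-181b-5p to miR-181d-5p the change was C12U beside a shorter 3′ end. Probes for such close relatives may share signal, which was not tested.

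In GRCm38.p6, miR-223-3p lies at chrX:96242884-96242905 on the plus strand, within the span of the noncoding gene F630028O10Rik. miR-342-3p lies at chr12:108658680-108658702 on the plus strand within Evl. miR-21a-5p lies at chr11:86584120-86584141 on the minus strand within the span of Vmp1. The genes of miR-142a-3p (chr11:87756903-87756925, plus strand) and miR-146a-5p (chr11:43374435-43374456, minus strand) had no other gene across them in the gene table, from which miRNA and tRNA genes were left out. miR-155-5p (chr16:84714143-84714165, plus strand) lies in its host transcript gene Mir155hg. miR-181a-5p and miR-181b-5p are each encoded at a pair of loci, as neighbours at chr1:137966468-137966490 and chr1:137966650-137966673, and again at chr2:38852741-38852763 and chr2:38853845-38853868 within the spans of Nr6a1 and its antisense gene Nr6a1os, all on the plus strand. The array signal therefore cannot be assigned to either locus. The tables used here give gene spans and no exons.

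Detection of a probe required that 50% or more of its kept spots stood well above background on that array, and detection of a miRNA required 1 such probe. The arrays detected between 144 and 234 miRNAs each, 446 on at least 1 array and 28 on all 9. The first arrays of 0.5 and 1 Gy stood apart: the additive error, the scanner software's estimate of background noise, was 19.4 and 11.2 there against 1.60 to 2.83 on the other 7. The dimmest detected probe had a mean signal of 96.3 and 55.5 on these 2 arrays and of 7.52 to 13.8 on the others. They are called the high-background arrays, and the fitted differences are given with and without them; detection counts and signals are given array by array. 0 Gy array 1 had the highest hybridization spike-in signal, 3.74 on a log10 scale against 2.52 to 3.33 on the other 8, and a scale factor of 1.93 against 0.815 to 1.07. The labelling spike-in signal was 0.829 (log10) on 0.5 Gy array 1 and 1.93 to 2.13 on the other 8. Slide 1 held 6 arrays, numbers 1 and 3 of every dose. 0 Gy array 2 was alone on slide 2, and array 2 of both irradiated doses shared slide 3 and a later scan day.

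Of the 9 miRNAs, 5 were detected on at least 1 array and 4 on none. miR-181a-5p was detected on all 9 arrays, miR-181b-5p on 6, miR-223-3p and miR-21a-5p on 5 each and miR-342-3p on 4. miR-142a-3p, miR-146a-5p, miR-155-5p and miR-150-5p had no spot above background on any array. Arrays 1, 2 and 3 of 0 Gy held 2, 1 and 5 of the miRNAs, those of 0.5 Gy 1, 4 and 5, and those of 1 Gy 1, 5 and 5. Detection thus separated the arrays within each dose: 0 Gy array 3 and the 4 low-background irradiated arrays held 4 or 5, and the other 4 arrays held 1 or 2. Over all pairs of a member and an array, 8 of 27 were detected at 0 Gy, 10 of 27 at 0.5 Gy and 11 of 27 at 1 Gy. Without array 3, 0 Gy held 3 such detections. Over all 1881 miRNAs, arrays 1, 2 and 3 detected 234, 157 and 185 at 0 Gy. They detected 216, 173 and 195 at 0.5 Gy and 144, 223 and 178 at 1 Gy, with no common direction with dose. 0 Gy array 1 thus detected the most miRNAs of any array, but only 2 members.

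**Figure D1:**
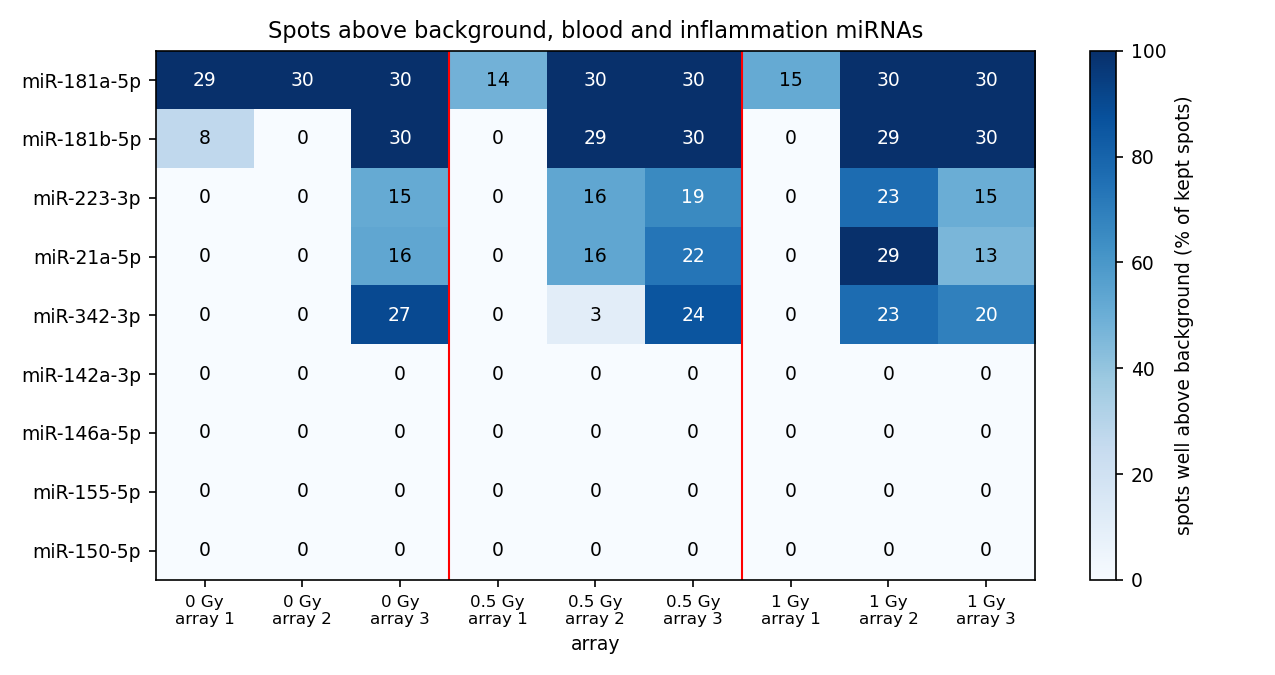
Number of spots well above background for each miRNA (rows) on each array (columns), with the colour giving the percent of kept spots; red lines separate the doses. miR-181a-5p was lit on all 9 arrays, miR-223-3p, miR-21a-5p and miR-342-3p were at 0 on 0 Gy arrays 1 and 2 and on both high-background arrays, and the lower 4 miRNAs were at 0 throughout.

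The label of these miRNAs as haematopoietic was set against their own pattern. miR-142a-3p, the most general blood-cell miRNA of the set, was undetected on all 9 arrays. Its mean probe signals were -0.82 to 1.12 on the 7 low-background arrays, below the dimmest detected probe of any array. The miRNAs that were detected include the myeloid miR-223-3p and miR-342-3p, which is found across blood lineages. The others were miR-181a-5p, miR-181b-5p and miR-21a-5p, which are not restricted to blood. How many blood cells the cultures held cannot be read from these values.

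miR-181a-5p, which tunes antigen-receptor signalling in lymphocytes and belongs to a family also expressed in mesenchymal cells, was the best measured of the set. Signals are given as log2 of the scaled signal, the sum of the miRNA's probes after each array was scaled, with a floor at 3.52; levels of different miRNAs are not comparable, because probes differ in response. Its log2 scaled signal was 6.37, 6.06 and 7.63 at 0 Gy, 7.61, 7.36 and 7.67 after 0.5 Gy, and 7.71, 7.68 and 7.17 after 1 Gy. 0 Gy arrays 1 and 2 were the lowest of the 9, and 0 Gy array 3 lay among the irradiated arrays, so the doses overlapped in all 3 comparisons. Groups without overlap were found for 2.99% of the 134 miRNAs tested between 0.5 and 0 Gy, 9.7% between 1 and 0 Gy and 0.746% between 1 and 0.5 Gy. The scanner software's own total signal, not scaled between arrays, was 33.7 ± 2.71, 13.0 ± 1.09 and 39.0 ± 3.02 at 0 Gy (value ± the software's error). It was 26.8 ± 4.91, 29.5 ± 2.25 and 39.6 ± 3.08 at 0.5 Gy and 36.3 ± 4.40, 46.3 ± 3.44 and 32.8 ± 2.61 at 1 Gy. On this unscaled measure 0 Gy array 2 was the lowest, and 0 Gy array 1 lay inside the range of the irradiated arrays. The brighter of its 2 probes was above background on every array, and the dimmer was not detected on the high-background arrays.

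The mean log2 signal of miR-181a-5p was 6.69 ± 0.83 at 0 Gy, 7.55 ± 0.16 at 0.5 Gy and 7.52 ± 0.31 at 1 Gy (SD, n = 3 each). limma was fitted to the 134 miRNAs that every array of some dose detected, and miR-181a-5p was the only member among them. It called 0 of 134 (0%) in each of the 3 comparisons at an adjusted p under 0.05, with 2, 4 and 0 miRNAs at an unadjusted p under 0.05 for 0.5 against 0 Gy, 1 against 0 Gy and 1 against 0.5 Gy. The difference of miR-181a-5p was 0.86 between 0.5 and 0 Gy (SE 0.49, 95% interval -0.25 to 1.96, limma adjusted p = 0.561). It was 0.83 between 1 and 0 Gy (SE 0.49, interval -0.27 to 1.94, limma adjusted p = 0.539), against a median of -0.47 and -0.49 over the 134 miRNAs in these comparisons. That median turned positive with the normexp background (0.32 and 0.11) and over all 446 miRNAs detected on any array (0.84 and 0.80). Neither difference passed the threshold, and both intervals held 0. In two-sided exact permutation tests of the same 3 against 3 values p was 0.3 and 0.2, where 0.1 is the smallest that 3 arrays a group allow; these tests include the high-background arrays.

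Between 1 and 0.5 Gy miR-181a-5p differed by -0.03 (95% interval -1.13 to 1.08, limma adjusted p = 0.999, exact permutation p = 1). Same-numbered arrays of 0.5 and 1 Gy deviated together, with correlations of 0.837, 0.749 and 0.587 across miRNAs. Arrays 2 and 3 also did so across numbers, at 0.578 and 0.547, while pairs of a high-background array with a low-background one were at -0.657 or lower. These correlations do not establish that the numbers pair the arrays, and the blocked fits only assume it. With these numbers as a block in a fit of the 6 irradiated arrays, 3 of 40 miRNAs (7.5%) passed the threshold and miR-181a-5p did not (difference -0.03, interval -0.71 to 0.66, limma adjusted p = 0.976). Without the high-background pair the blocked fit kept 4 arrays and 1 residual degree of freedom, and called 6 of 173 miRNAs (3.47%) and no member (miR-181a-5p -0.09, limma adjusted p = 0.980). Its direction against 0 Gy rested on the scaling: with the 75th percentile over all probes the differences were -0.40 and -0.41, and with quantile normalization that of 0.5 Gy was -0.22, while the scalings also moved the median of all tested miRNAs. With the slide as a block the differences from 0 Gy were 0.55 and 0.53, and within slide 1 alone they were 0.64 and 0.44. For 0 Gy both fits rest on arrays 1 and 3, since 0 Gy array 2 was alone on its slide. Slide 1 also held both high-background arrays. Without 0 Gy array 3, all 6 irradiated arrays lay above both remaining controls and the differences were 1.33 and 1.30. That separation followed from the removal, since array 3 was the only control that overlapped the irradiated arrays. It carries no support for a difference. That fit still gave 0 calls over the 143 miRNAs tested, of which 14 and 18 had a limma unadjusted p under 0.05.

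miR-181b-5p shares the seed of miR-181a-5p and is transcribed beside it. Its log2 scaled signal was 3.63, 3.52 and 5.68 at 0 Gy, 4.55, 5.05 and 5.66 after 0.5 Gy, and 4.52, 5.16 and 5.29 after 1 Gy, where 3.52 is the floor. The number of its 30 spots above background was 8, 0 and 30 at 0 Gy, 0, 29 and 30 after 0.5 Gy, and 0, 29 and 30 after 1 Gy. 0 Gy arrays 1 and 2 were lowest and 0 Gy array 3 was, beside 0.5 Gy array 3, the highest, so 0 Gy spanned the irradiated range. Its highest probe mean on a low-background array, 29.8, lay below the dimmest detected probe of both high-background arrays, so its lack of detection there sets no level.

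miR-223-3p restrains the output of granulocyte progenitors. Its log2 scaled signal was 3.52, 3.52 and 5.43 at 0 Gy, 5.10, 4.85 and 5.22 after 0.5 Gy, and 4.10, 5.14 and 5.06 after 1 Gy. Spots above background numbered 0, 0 and 15 at 0 Gy, 0, 16 and 19 after 0.5 Gy, and 0, 23 and 15 after 1 Gy. The highest value of the 9 came from 0 Gy array 3, and the lowest from the other control arrays at the floor. The probes disagreed in brightness: on 0 Gy array 3 their mean signals were 6.98 and 33.0, and the dimmer was detected on 1 Gy array 2 alone. The signals on the high-background arrays, 5.10 and 4.10, came with no spot above background. The highest probe mean on a low-background array, 33.0, lay below the dimmest detected probe of both, so these signals set no level. The scanner software's own mark also counted miR-223-3p as detected on 0 Gy array 2, at a total signal of 1.14 ± 0.375.

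miR-342-3p, transcribed from within Evl and found across blood lineages, was detected on the fewest arrays of the 5 detected members. Its log2 scaled signal was 3.52, 3.52 and 4.76 at 0 Gy, 6.57, 3.92 and 4.55 after 0.5 Gy, and 5.28, 4.24 and 4.67 after 1 Gy. Its spots above background numbered 0, 0 and 27 at 0 Gy, 0, 3 and 24 after 0.5 Gy, and 0, 23 and 20 after 1 Gy. The highest values, 6.57 and 5.28, were those of the high-background arrays, where no spot stood above background. Among the detected values the range was 4.24 to 4.76, with 0 Gy array 3 at the top. The scanner software's mark added a detection on 0.5 Gy array 2, at a total signal of 1.58 ± 0.398.

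miR-21a-5p represses Pdcd4 and is made in stromal as well as blood cells. Its log2 scaled signal was 3.52, 3.52 and 4.95 at 0 Gy, 3.52, 4.72 and 5.20 after 0.5 Gy, and 3.52, 5.74 and 4.65 after 1 Gy. Its spots above background numbered 0, 0 and 16 at 0 Gy, 0, 16 and 22 after 0.5 Gy, and 0, 29 and 13 after 1 Gy. 1 Gy array 2 was the highest, and 0 Gy arrays 1 and 2 and both high-background arrays lay at the floor. Its highest probe mean on a low-background array, 40.1, lay below the dimmest detected probe of both high-background arrays, so the values there set no level. Here too 1 probe carried the signal: on 0 Gy array 3 the probe means were 22.7 and 5.92, and both probes were detected on 1 Gy array 2 alone.

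**Figure D2:**
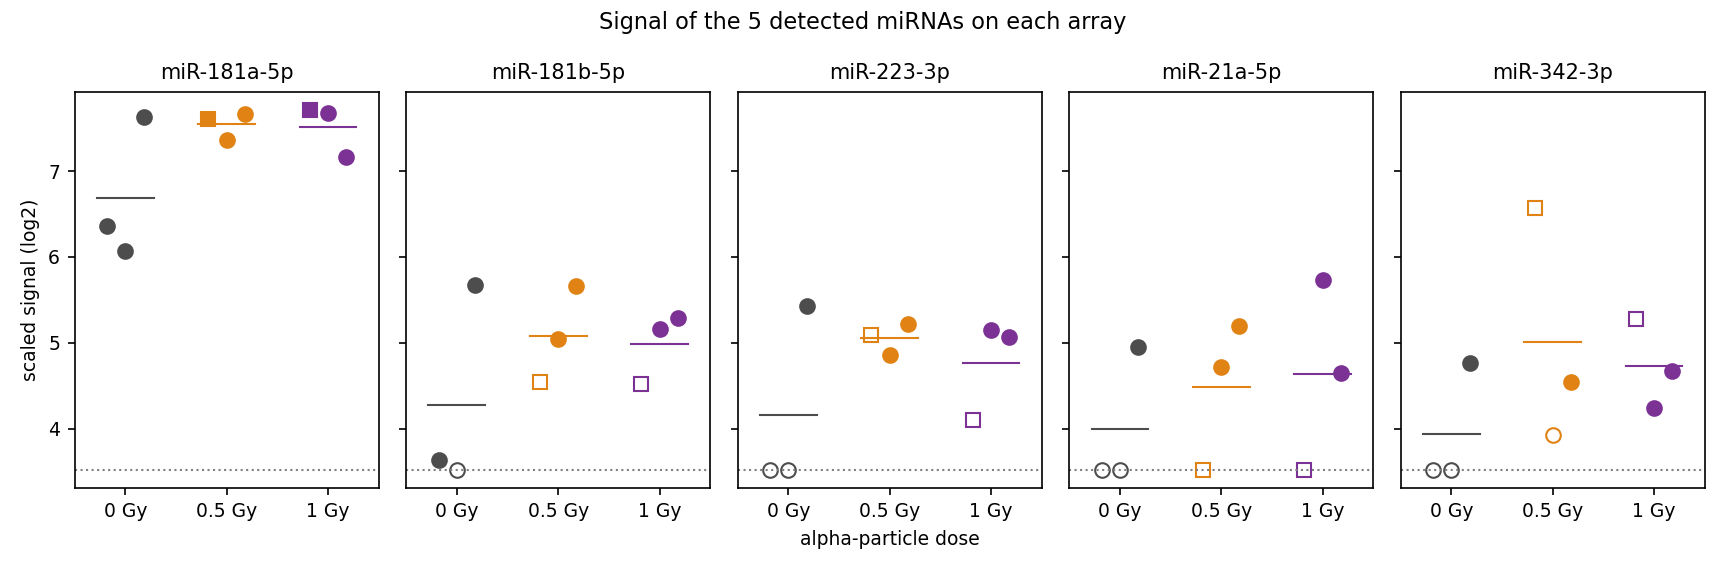
Log2 scaled signal of the 5 detected miRNAs on each array (points, arrays 1 to 3 from left to right within a dose), with the mean of the 3 arrays as a line and the floor of 3.52 dotted. Filled points were detected and open points were not; squares are the high-background arrays, circles the other 7. In each panel 0 Gy arrays 1 and 2 lie below the circles of both irradiated doses and 0 Gy array 3 lies among or above them.

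The 4 undetected miRNAs include the principal NF-kB-induced pair. Mean signals of the probes of miR-146a-5p, which dampens Toll-like receptor signalling by repressing Traf6 and Irak1, were -2.37 to 0.27 on the 7 low-background arrays. Those of miR-155-5p, which represses Socs1, were 0.48 to 2.83. Those of miR-150-5p, which represses Myb, were -1.19 to 3.34. All these means lay below 7.52, the lowest mean of any detected probe on any array. The levels on these arrays had only an upper bound, the dimmest detected probe of each array (7.52 to 13.8), and no difference between doses was detectable. On the high-background arrays the probes went different ways: on 0.5 Gy array 1 the means were 64.8 and 78.0 for miR-150-5p and -22.3 and -20.5 for miR-146a-5p, and on 1 Gy array 1 they were 26.7 and 32.7 against -12.6 and -11.5. The log2 scaled signal of miR-150-5p therefore read 7.39 and 6.19 on those arrays with 0 spots above background. The scanner software's own mark counted it as detected on 0.5 Gy array 1, at a total signal of 30.3 ± 6.21.

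Without the high-background arrays, 3 arrays of 0 Gy and 2 of each irradiated dose remained, and 179 miRNAs passed the filter, all 5 detected members included. miR-181b-5p, miR-223-3p and miR-21a-5p passed through the irradiated doses alone and miR-342-3p through 1 Gy alone, so a positive difference from 0 Gy was partly built into their selection. Means were 4.28 ± 1.22 (n = 3), 5.35 ± 0.43 (n = 2) and 5.22 ± 0.10 (n = 2) for mmu-miR-181b-5p at 0, 0.5 and 1 Gy. For mmu-miR-223-3p they were 4.16 ± 1.11, 5.04 ± 0.26 and 5.10 ± 0.06, and for mmu-miR-21a-5p 3.995 ± 0.83, 4.96 ± 0.34 and 5.19 ± 0.77. For mmu-miR-342-3p they were 3.93 ± 0.72, 4.23 ± 0.44 and 4.45 ± 0.30. The SD at 0 Gy exceeded that of both irradiated doses for each of the 4, since 1 control array was high and the others at or near the floor.

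No member passed the threshold in the 7-array fit, in which 0 of 179 miRNAs (0%) were called in each comparison and 0, 9 and 4 had an unadjusted p under 0.05. Between 0.5 and 0 Gy the differences were 0.83 for miR-181a-5p, 1.08 for miR-181b-5p, 0.88 for miR-223-3p and 0.96 for miR-21a-5p, each at a limma adjusted p of 0.828, and 0.30 for miR-342-3p at 0.892. The median of all 179 was 0.03. Between 1 and 0 Gy they were 0.74, 0.95, 0.95 and 1.20 in the same order, at a limma adjusted p of 0.590, and 0.52 for miR-342-3p at 0.601, with a median of -0.02 over all 179. SEs ran from 0.54 to 0.68, so all 95% intervals held 0, and that of miR-21a-5p for 1 against 0 Gy was the nearest to leaving it (-0.16 to 2.56). These differences shared the same 3 control arrays. Between 1 and 0.5 Gy the 5 differences lay between -0.13 and 0.23, at a limma adjusted p of 0.999, and the widest 95% interval, that of miR-181b-5p, ran from -1.82 to 1.56.

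**Figure D3:**
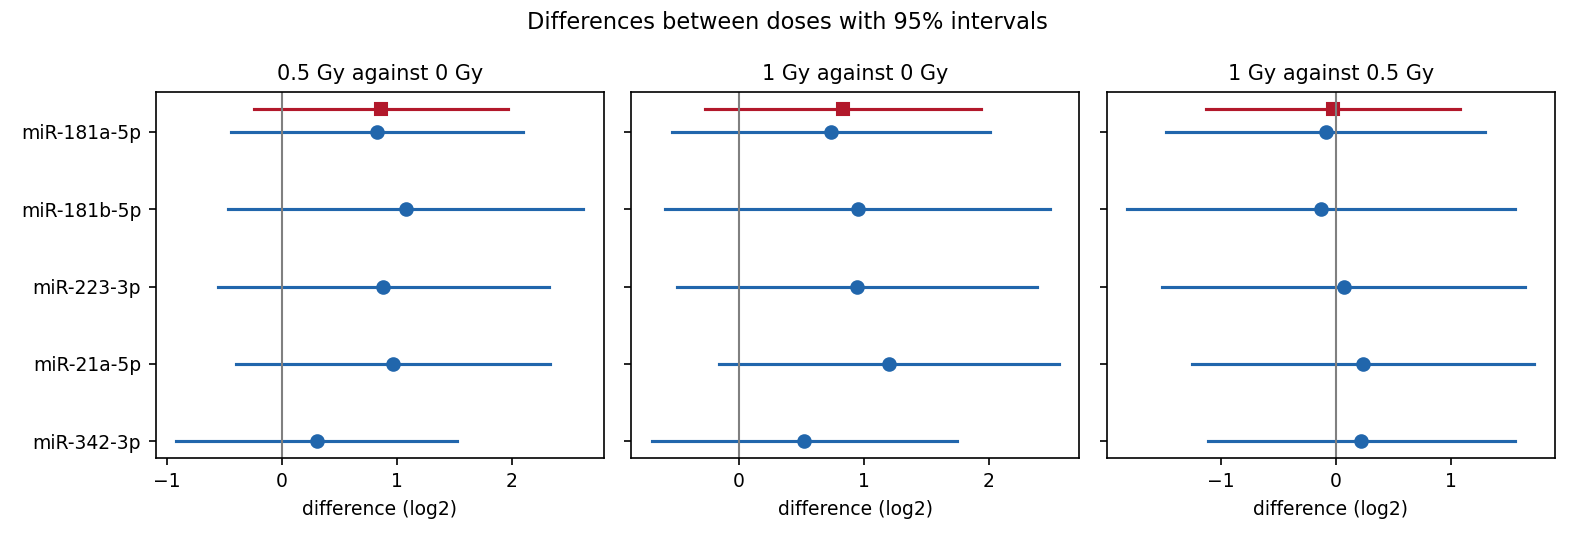
Differences in log2 scaled signal between doses (horizontal axis) with 95% intervals from limma, for the 5 detected miRNAs over the 7 low-background arrays (blue circles) and for miR-181a-5p over all 9 arrays (red square). Points lie between 0.30 and 1.20 in both comparisons with 0 Gy and near 0 between the irradiated doses, and every interval crosses 0. The members other than miR-181a-5p passed the filter through irradiated doses alone, so a positive difference from 0 Gy was partly built into their selection.

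The calls turned on 0 Gy array 3. Leaving it out of the 7-array fit took them from 0 to 28 of 185 miRNAs (15.1%) for 0.5 against 0 Gy and to 30 of 185 (16.2%) for 1 against 0 Gy. Among them miR-223-3p differed by 1.52 (limma adjusted p = 0.0348) and 1.59 (0.0304), and miR-181b-5p by 1.78 (0.0251) and 1.65 (0.0314). miR-181a-5p stood at 1.30 (limma adjusted p = 0.0826) and 1.21 (0.0976), miR-21a-5p at 1.44 (0.111) and 1.68 (0.0612), and miR-342-3p at 0.72 (0.368) and 0.94 (0.195). These values carry no support for a difference. The 4 members other than miR-181a-5p entered the fit through the irradiated doses alone, the high control had been removed, and the remaining control values were at the floor for miR-223-3p, miR-21a-5p and miR-342-3p and at 3.63 and 3.52 for miR-181b-5p. The floor therefore set the size of these differences, and tied control values understate the spread. No label gives a reason to set this array aside, and its additive error of 1.72 was like that of the other low-background arrays. Its detection of 185 miRNAs lay between those of 0 Gy arrays 1 and 2, at 234 and 157. Among the controls, 0 Gy array 1 stood apart in summed miRNA signal before scaling, at 236074 against 28535 and 31223 on arrays 2 and 3.

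The opposite arms and close relatives gave no further signal. All 11 opposite-arm miRNAs of the members' precursors were on the array and none was detected on any array. The same held for the 6 relatives, miR-146b-5p, miR-181c-5p, miR-181d-5p, miR-142b, miR-21b and miR-21c. Of the miR-181 family, whose 4 seeds are identical in the sequences printed above, only the 2 members encoded on chromosomes 1 and 2 were thus detected.

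Among 8 other miRNAs tied to NF-kB or Toll-like receptor signalling, 3 were detected and none passed the threshold in any of the comparisons over 9 or 7 arrays. miR-125a-5p and miR-125b-5p, which in macrophages restrain and shape inflammatory signalling, were detected on all 9. let-7e-5p, which targets Tlr4, was detected on 5. The log2 scaled signal of miR-125b-5p was 5.51, 7.35 and 9.29 at 0 Gy, 8.46, 9.10 and 9.26 after 0.5 Gy, and 8.18, 9.24 and 9.34 after 1 Gy. That of let-7e-5p was 3.52, 3.75 and 7.10 at 0 Gy, 3.52, 6.41 and 6.88 after 0.5 Gy, and 3.52, 6.38 and 6.61 after 1 Gy. Both were lowest on 0 Gy arrays 1 and 2 among the low-background arrays, with 0 Gy array 3 level with the irradiated ones. Over 7 arrays the 3 had a median difference of 1.80 between 0.5 and 0 Gy and of 1.70 between 1 and 0 Gy, against 0.03 and -0.02 over all 179 tested. let-7e-5p passed the filter through the irradiated doses alone, so a positive difference was partly built into that median.

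The detected stromal miRNAs followed the same split of the control arrays. Of 8 listed, 4 were detected: miR-125b-5p, miR-214-3p, miR-199a-3p and miR-199a-5p, the last 3 of which can come from a transcript that marks mesenchymal cells. The other 4, miR-143-3p, miR-145a-5p, miR-99a-5p and miR-100-5p, were detected on no array. miR-125b-5p is also on the NF-kB list above, so the lists are not independent. miR-199a-3p had log2 scaled signals of 3.52, 4.64 and 7.00 at 0 Gy, and miR-214-3p of 5.13, 6.89 and 8.58. The summed scaled signal of the 8 was 89.6, 315 and 1180 on 0 Gy arrays 1, 2 and 3 and 1006 to 1131 on the 4 low-background irradiated arrays. That of the 9 members was 107, 98.4 and 357 against 271 to 355. The members' sum was therefore low on the same 2 control arrays as the stromal sum. Without scaling, the members' sum on the control arrays was 207, 89.8 and 330 against 229 to 376 on those 4 arrays, so 0 Gy array 1 was then closer to them, and the stromal sum was 173, 288 and 1092 against 885 to 1215. Whether the makeup of the cultures or the labelling of these RNAs had a part in the members' differences was not tested.

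Most other blood and vessel markers were undetected. Of the 7 miRNAs on the myeloid list 3 were detected: miR-223-3p, miR-342-3p, and miR-511-5p on 0.5 Gy array 1 alone, a high-background array. miR-342-3p is not restricted to myeloid cells. The summed scaled signal of the list was 20.2, 18.9 and 74.5 on the control arrays and 54.2 to 76.2 on the 4 low-background irradiated ones. Of 5 miRNAs on the lymphoid list only miR-181a-5p and miR-181b-5p were detected, which are not restricted to blood. miR-150-5p, miR-150-3p and miR-155-5p were not detected. The sum of the lymphoid list was 100, 78.8 and 254 against 189 to 259, and cannot be read as an amount of lymphoid cells. None of the 4 erythroid and platelet miRNAs on the array, miR-451a included, and neither arm of the endothelial miR-126a was detected on any array.

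**Figure D4:**
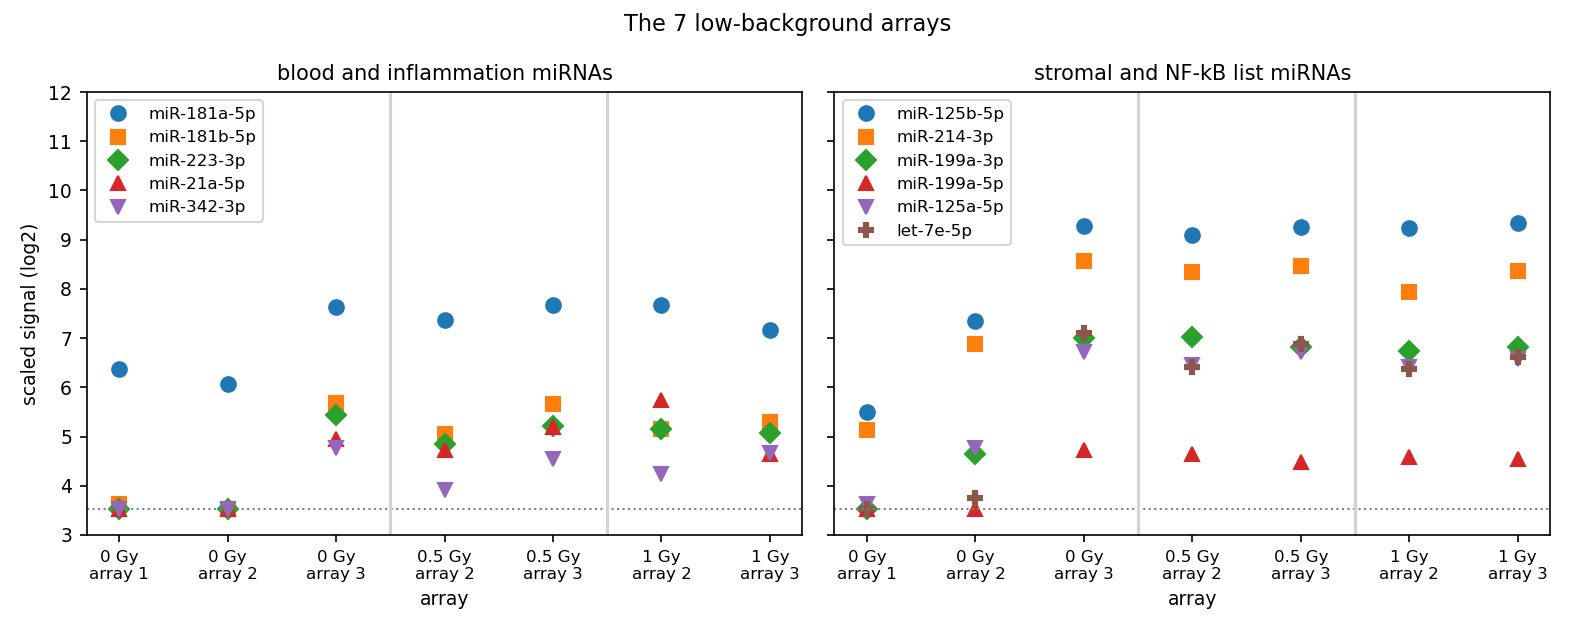
Log2 scaled signal (vertical axis) on the 7 low-background arrays, with the 5 detected blood and inflammation miRNAs on the left and 6 miRNAs of the stromal and NF-kB lists on the right; the floor of 3.52 is dotted, and heights of different miRNAs are not comparable. In both panels 0 Gy arrays 1 and 2 lie lower than 0 Gy array 3, which is near the 4 irradiated arrays.

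The on and off pattern of miR-223-3p and miR-21a-5p was shared with other miRNAs. Both were detected on 0 Gy array 3 and the 4 low-background irradiated arrays and on neither other control array. That was true of 18 of the 301 miRNAs detected on any of the 7 arrays (5.98%). The other 16 were let-7e-5p, let-7g-5p, let-7i-5p, miR-103-3p, miR-107-3p, miR-140-3p, miR-199a-5p, miR-22-3p, miR-221-3p, miR-26a-5p, miR-27b-3p, miR-30a-5p, miR-30d-5p, miR-652-3p, miR-93-5p and miR-99b-5p, most of them expressed in many tissues. Detection on all 4 low-background irradiated arrays, with no condition on 0 Gy, held for 140 of the 301 (46.5%).

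Of the members, likeness across arrays could be measured for miR-181a-5p, the only one detected on all 9. The tested miRNAs whose log2 signal followed it most closely were miR-125a-5p (Pearson r = 0.863 over 9 arrays), let-7b-5p (0.812), miR-193b-3p (0.805), let-7c-5p (0.763) and miR-125b-5p (0.755). Of these, miR-193b-3p was detected on 7 of the 9 arrays. Over the 7 low-background arrays the same 5 gave r of 0.837 to 0.896. Those arrays are among the 9 on which the 5 were picked, so this is no separate check. The points share their arrays and the scaling of each array, and the correlations describe these arrays only. miR-125a-5p itself had log2 signals of 3.63, 4.77 and 6.71 at 0 Gy, 8.01, 6.45 and 6.72 after 0.5 Gy, and 7.11, 6.42 and 6.57 after 1 Gy, with arrays 1 and 2 of 0 Gy again the lowest.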

How the data were processed

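The deposited intensity values are per spot, 1 scanner file an array, and come from Agilent Feature Extraction 11.5.1.1. The headers name an older mouse build than that of the sequences. Per the file headers, the software had subtracted the background from the processed intensity and had applied no scaling across arrays. The deposited files also hold that software's 0 or 1 marks per spot and its total gene signal. The series-wide value table was set aside, since its 9 value columns have names that match no sample title.

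Outlier spots were left out. Probe means were scaled per array by the 75th percentile of the 45 probes that all 9 arrays detected, summed per miRNA, raised to a floor of 11.5 scaled units (the 1st percentile of detected values) and taken to log2. limma 3.58.1 (lmFit, eBayes; R 4.3.3) was fitted over all miRNAs that passed the filter. Tests were two-sided, p-values were adjusted by Benjamini-Hochberg over all of them, and 0.05 was the threshold. The code was tested on simulated data. Signal over background and the number of arrays limit the precision. Exact permutation tests used scipy 1.17.1 and figures matplotlib 3.10.9.

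The text names the 9 members, their opposite arms and relatives, the NF-kB list and up to 4 detected miRNAs of a list. It also names the 4 undetected stromal miRNAs and the 5 of highest correlation with a member detected on all arrays. Members and lists were chosen with earlier results of these data known. Same-numbered arrays of 0.5 and 1 Gy correlated (0.587 to 0.837), and the block assumed that their numbers pair them. The correlations cannot establish this, since arrays 2 and 3 correlated across numbers too (0.547 and 0.578). Each was also taken on deviations from a dose mean that held a high-background array. Numbers did not pair either dose with 0 Gy (-0.13 to 0.16). Alternatives changed the scaling, background, probe summary, filter, detection call, floor, blocks, variance model and arrays. Fits without the high-background arrays, without array 1 of every dose, and with the block in the irradiated arrays alone (all 6, or the 4 of low background) were chosen after the data were seen.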

Additional observations from a re-analysis of the deposited data

How the results depend on the processing

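Over 9 arrays every other setting tried left 0 miRNAs past the threshold in all 3 comparisons, the replicate block and each left-out array included, and miR-181a-5p stayed above 0 Gy except under the scalings named next. Its difference between 0.5 and 0 Gy was -0.40 with the 75th percentile over all probes and -0.22 with quantile normalization, and that between 1 and 0 Gy was -0.41 with the former; these scalings moved the median of all tested miRNAs to -0.66 and -0.53 for 0.5 Gy and to -1.08 and -0.59 for 1 Gy, whereas normexp moved it to 0.32 and 0.11 and the fit of all 446 to 0.84 and 0.80. The cause was not tested. With the replicate block the differences of miR-181a-5p were 0.86, 0.83 and -0.03, as without it. Between 1 and 0.5 Gy it was 0.71 with quantile normalization, 0.14 with no scaling, 0.013 with the total gene signal and 0.19 over 7 arrays with no scaling, and its lowest value, over 7 arrays with the 75th percentile over all probes, was -0.72. Leaving out each array gave 0.55 to 1.33, 0.52 to 1.30 and -0.12 to 0.15 over 9 arrays, and 0.52 to 1.30, 0.42 to 1.21 and -0.35 to 0.16 over 7 (0.063 without 0.5 Gy array 3).

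The 6 irradiated arrays with the replicate block gave 3 calls of 40 between 1 and 0.5 Gy, and without the high-background pair 6 of 173. In the 7-array fit, left-out arrays gave 0 to 28 calls for 0.5 against 0 Gy, 0 to 30 for 1 against 0 Gy and 0 to 1 for 1 against 0.5 Gy. The highest counts came without 0 Gy array 3, and without 1 Gy array 3 the count was 1 of 224 in both comparisons of 1 Gy. Between 1 and 0.5 Gy over 7 arrays, the 75th percentile over all probes gave -0.57 for miR-223-3p, -0.41 for miR-342-3p and -0.40 for miR-21a-5p. Quantile normalization gave -0.056 for miR-223-3p, and no scaling 0.15 for miR-181b-5p. Left-out arrays gave -0.12 to 0.25 for miR-223-3p, -0.093 to 0.53 for miR-342-3p, -0.44 to 0.18 for miR-181b-5p and -0.31 to 0.78 for miR-21a-5p (-0.0032 without 0.5 Gy array 2), and for miR-342-3p between 0.5 and 0 Gy -0.010 to 0.72. Against 0 Gy over 7 arrays, miR-223-3p lay between 0.56 and 1.59 and miR-181b-5p between 0.57 and 1.78 over the left-out arrays, past the threshold without 0 Gy array 3 alone. In the fit without that array both entered through the irradiated doses alone, and their remaining control values lay at or near the floor. The crossing of the threshold there carries no support for a difference.

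Other detection calls gave 7 to 9 detections of a member at 0 Gy, 10 to 12 at 0.5 Gy and 10 to 11 at 1 Gy, and leaving out an array gave 3 to 7, 5 to 9 and 6 to 10. Normexp was run on the median spot intensity, as no mean column was used.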
